A study of Rattus norvegicus with 30 samples.

Results

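The lungs of rats that had a sham operation were compared with the lungs of rats that had saline infused into the biliopancreatic duct, both taken 24 h after surgery. This comparison holds no taurocholate on either side, so it sets 2 kinds of control surgery against each other. It uses 6 of the 30 RNA-seq libraries of the study, the 3 labelled Sham-24h and the 3 labelled Con-24h, each made from the lung of 1 rat. In the Sham-24h rats the pancreas was turned slightly and nothing was infused. In the Con-24h rats sterile saline was infused backwards through the duct, in the volume that was used for sodium taurocholate elsewhere in the study. Both groups were male Sprague Dawley rats, 8 weeks old, that had been fasted for 12 h and anaesthetised with pentobarbital, and both received the vehicles of the drugs tested elsewhere, which were intravenous saline and intragastric carboxymethylcellulose sodium at 2 and 12 h after surgery. The same contrast at 6 h, in 6 other rats (Sham-6h and Con-6h), was used for comparison and shares no library with that at 24 h. The pathology of the pancreas and lung of these rats was not analysed here.

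Saline pushed backwards into the biliopancreatic duct raises the pressure in the pancreas and is used as the vehicle control for bile salt pancreatitis, whereas a sham operation controls for anaesthesia, the opened abdomen and handling. The lung receives blood from the abdominal organs and holds a large pool of neutrophils in its capillaries, and its RNA mixes epithelium, endothelium, stroma and blood cells. Per the study's methods the pulmonary artery was flushed with saline before the lung was frozen, and how much blood this left in each lung was not tested. In such bulk tissue, fewer cells of a type and less RNA per cell cannot be told apart.

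The 6 libraries held 23100017 to 29520769 reads on genes. The spread between rats of 1 group, averaged with most weight on abundant genes, was 39.9 to 85.0 times the counting variance. No library repeated another. The lung label was checked against defining markers: Sftpc, the surfactant protein of alveolar type 2 cells, lay at 17539 to 28785 FPKM (fragments per kilobase of transcript, scaled to the mapped reads of the library) in the 6 libraries, and Cdh5, the cadherin of endothelial junctions, at 115 to 199 FPKM. Unless a smaller model is named, the p-values below take the spread between rats from all 30 libraries in 10 groups. The compared groups hold 3 rats each, and the p-values speak only of the rats sampled.

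At 24 h, 160 of 15934 genes tested, or 1% of them, were differentially expressed genes (DEGs), that is, genes with an adjusted p under 0.05 in edgeR's quasi-likelihood test and a change of at least 2-fold. Up-regulated DEGs in Sham-24h numbered 146 (0.916% of genes tested) and down-regulated DEGs numbered 14 (0.0879%). Of the 146 up-regulated DEGs, 106 changed by less than 3-fold, and 51 (34.9%, beside 20.7% of all genes tested) stayed under 1 FPKM in both group means. With the adjusted p alone and no limit on the fold change, 898 genes were higher in Sham-24h (5.64% of genes tested), with a median log2 fold change of 0.66, and 671 were lower (4.21%), with a median of -0.46. The excess of up-regulated genes was thus wider under the 2-fold limit than without it, since 657 of the 671 lower genes and 752 of the 898 higher genes changed by less than 2-fold. The FPKM of the 2 groups did not overlap for 28.9% of all genes tested (2422 with Sham-24h above and 2179 with Con-24h above), for 129 of the 146 up-regulated DEGs and for 12 of the 14 down-regulated DEGs. These calls used a model of all 30 libraries in 10 groups. A model of the 6 libraries alone called no gene (345 at an unadjusted p under 0.05 and 2-fold, smallest adjusted p 0.0794), whereas edgeR's exact test on the same 6 libraries called 116.

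**Figure D1:**
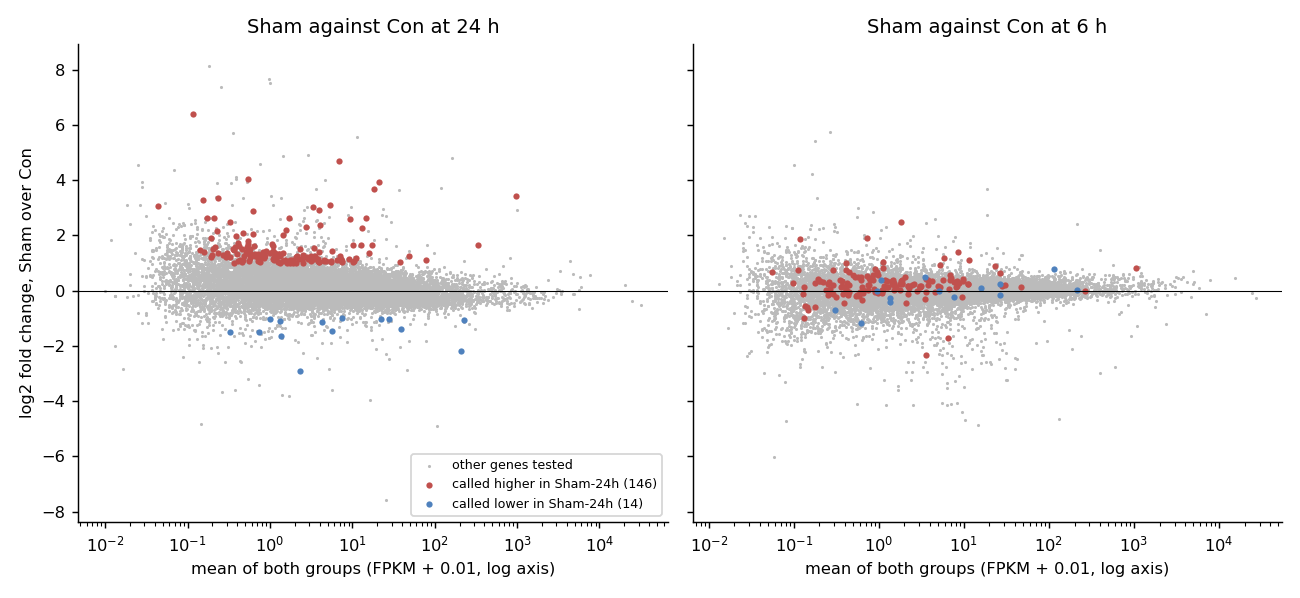
Each point is 1 of 15934 genes, with the mean FPKM of both groups plus 0.01 on a log axis and the log2 fold change of Sham over Con on the vertical axis, at 24 h (left) and 6 h (right). Red points are the 146 genes called higher and blue points the 14 called lower at 24 h; at 6 h, where none was called, the same genes lie around a median of 0.20 (red) and -0.01 (blue).

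No gene was called at 6 h by edgeR (0% of 15934 tested), with 286 genes at an unadjusted p under 0.05 and 2-fold (51 higher and 235 lower in Sham-6h) and 7 called by DESeq2. The difference between the effects at 24 h and 6 h, tested as an interaction, was also called for no gene by edgeR (0%), with 515 genes at an unadjusted p under 0.05 and 2-fold and 11 called by DESeq2. The genes called at 24 h are therefore not shown to differ in their response from 6 h. Many leaned the same way at 6 h: of the 898 genes higher in Sham-24h at the adjusted p alone, 746 (83.1%) also had a log2 fold change above 0 at 6 h, with a median of 0.15, and of the 671 lower genes, 66 (9.84%) had one above 0, with a median of -0.14. Over all genes tested, 49.9% were above 0 at 6 h. Both 6 h medians were small beside those at 24 h, and genes are not independent replicates. Of the 146 up-regulated DEGs 113 were above 0 at 6 h, and 9 of them (6.16%) passed an unadjusted p under 0.05 at 6 h in the same direction, which is close to the 6.31% of all genes tested. The 14 down-regulated DEGs were above 0 at 6 h in 7 cases.

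Several genes that were higher in Sham-24h are described first although the naming rule, which takes the largest changes, did not choose most of them. They were picked after their values were seen and stand for no gene group. Ppp1cb (ENSRNOG00000004612, chromosome 6), the beta catalytic subunit of protein phosphatase 1, lay at 70.4, 71.4 and 65.5 FPKM in the Sham-24h rats and at 25.1, 26.6 and 35.9 FPKM in the Con-24h rats. The 2 groups stood well apart, with a log2 fold change of 1.24 ± 0.18 (SE, edgeR adjusted p 0.00183). At 6 h its means were 32.4 ± 6.8 (SD, n = 3) FPKM in Sham-6h and 28.9 ± 3.06 FPKM in Con-6h, so the level in Sham-24h exceeded that of the other 3 groups. Neither Cav2 nor Ddx3x was called without Sham-24h replicate 2 or Con-24h replicate 1 or 2. Cav2, a caveolin of membrane caveolae, averaged 108 ± 17.0 FPKM in Sham-24h and 50.04 ± 16.4 FPKM in Con-24h, close to 48.2 ± 4.74 FPKM in Sham-6h and 45.1 ± 4.98 FPKM in Con-6h. Ddx3x, an RNA helicase, averaged 51.6 ± 5.44 FPKM against 25.1 ± 5.9 FPKM at 24 h.

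In 3 further genes, whose products act on DNA or on lysines of histones and other proteins, the mean in Con-24h was below both 6 h means. Tet3 (ENSRNOG00000011387), which oxidises methylated cytosine in DNA, averaged 1.86 ± 0.289 FPKM in Sham-24h, 0.733 ± 0.125 FPKM in Con-24h, 1.57 ± 0.165 FPKM in Sham-6h and 1.25 ± 0.205 FPKM in Con-6h. Setd7, a lysine methyltransferase, averaged 12.5 ± 1.08 FPKM in Sham-24h, 5.72 ± 0.133 FPKM in Con-24h, 11.1 ± 0.92 FPKM in Sham-6h and 8.48 ± 0.333 FPKM in Con-6h. Kdm7a, a histone lysine demethylase, averaged 0.84 ± 0.178 FPKM in Sham-24h and 0.297 ± 0.0666 FPKM in Con-24h, with 0.493 ± 0.0751 FPKM and 0.57 ± 0.06 FPKM in Sham-6h and Con-6h. For these 3 genes the log2 fold changes at 24 h were 1.33, 1.13 and 1.49, each with an edgeR adjusted p of 0.00183. Ppp1cb, Tet3, Setd7 and Kdm7a belong to the 15 genes that were called whichever of the 6 libraries was left out, as do Fam126b, Mt-nd6, Atxn1, Ptpn4, Gulp1, Ap1s2, Vma21 and Ppip5k2.

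Mt-nd6 (ENSRNOG00000029042), a subunit of respiratory complex I encoded in the mitochondrial genome on the strand opposite to most of its genes, was abundant and higher in Sham-24h. It lay at 697, 495 and 350 FPKM in the Sham-24h rats and at 157, 148 and 178 FPKM in the Con-24h rats, and the lowest Sham-24h rat was above every Con-24h rat. The log2 fold change was 1.67 ± 0.26 (SE, edgeR adjusted p 0.00183). At 6 h both groups lay between those levels, with means of 260 ± 59.3 (SD, n = 3) FPKM in Sham-6h and 265 ± 7.26 FPKM in Con-6h. Fam126b (ENSRNOG00000025079, chromosome 9), a relative of the myelin-linked protein hyccin, lay at 1.89, 2.69 and 2.38 FPKM against 0.38, 0.52 and 0.83 FPKM, with a log2 fold change of 2.01 ± 0.33 (SE, edgeR adjusted p 0.00268). Its groups did not overlap either.

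The other 12 protein genes of the mitochondrial genome did not all move with Mt-nd6. Of the 13 genes with Mt-nd6 included, 10 had a log2 fold change above 0 and 3 had one below. Mt-co1 and Mt-co2, the catalytic subunits of cytochrome c oxidase, were also higher in Sham-24h, with log2 fold changes of 0.57 and 0.60 (edgeR adjusted p 0.031 and 0.0352), and in the other rats at 6 h they had log2 fold changes of 0.38 and 0.51 without passing the adjusted p. Mt-nd2, a further subunit of complex I, had a log2 fold change of -0.64 (adjusted p 0.0814) with every Con-24h rat above every Sham-24h rat, and Mt-cytb one of 0.01. Of 13 genes 3 were higher and none lower at the adjusted p alone, where 5.64% of all genes were higher and 4.21% lower. With a library left out, Mt-nd6 alone passed in 5 of the 6 fits, and 4 of the 13 passed without Con-24h replicate 3. The list had a median log2 fold change of 0.14 (0.07 without Con-24h replicate 1), beside 0.02 over all genes tested. The summed level of the 13 genes did not overlap between groups, at 40570 to 44565 FPKM in Sham-24h and 30533 to 38618 FPKM in Con-24h. Among all 37 lists, this was the 1 whose sums lay apart with Sham-24h above, while 5 had Con-24h above. Some nuclear genes of oxidative phosphorylation were lower: of 76 tested, none was higher and 11 were lower in Sham-24h at the adjusted p alone, where 4.21% of all genes were lower. They included Ndufv1 (log2 fold change -0.45, adjusted p 0.0088), a core subunit of complex I, Uqcrc1 (-0.48) of complex III and Cox4i1 (-0.38) of cytochrome c oxidase. The list's median was -0.13, with 24 of 76 above 0 (-0.02 and 35 above 0 without Con-24h replicate 1), and without Con-24h replicate 2 none of its genes passed, without Con-24h replicate 1 or Sham-24h replicate 3 1 gene did, without Sham-24h replicate 2 3 did, and without Con-24h replicate 3 22 did. The libraries were made from polyadenylated RNA, and the poly(A) state of Mt-nd6 RNA was not measured. Reads of mitochondrial genes can also come from nuclear copies. Whether strand was used in counting reads on known genes is not given in the sources used here. For the lncRNA genes that the study assembled itself, antisense reads were discarded per its methods.

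Several genes of small RNAs were among the higher DEGs. Of 85 genes annotated as snoRNA, scaRNA, snRNA or miRNA, 7 were called higher (8.24%, beside 0.916% of all genes) and none was called lower by edgeR, with 62 log2 fold changes above 0. The set was singled out after its values were seen, and no test of it was made. SnoRNAs guide the chemical modification of ribosomal RNA and scaRNAs that of spliceosomal RNA, and most are cut out of the introns of host genes. Their mature forms carry no poly(A) tail, whereas the libraries were made from polyadenylated RNA. SCARNA7 (ENSRNOG00000053927, chromosome 2) lay at 12.7, 16.3 and 17.4 FPKM in Sham-24h and at 5.62, 4.5 and 4.77 FPKM in Con-24h, with a log2 fold change of 1.64 (edgeR adjusted p 0.0113). The snoRNA snoU2_19 (ENSRNOG00000057204, chromosome 8) lay at 18.4, 27.2 and 33.6 FPKM against 9.01, 9.78 and 6.35 FPKM, with a log2 fold change of 1.65 (adjusted p 0.0088). In neither did the groups overlap. SNORD78, SNORD72 and SNORA28 were called with log2 fold changes of 3.02, 2.64 and 2.21 from low levels. In Con-24h, 1 rat was listed at 0 FPKM for SNORD78 and for SNORD72, and SNORA28 lay at 0.29 to 0.75 FPKM. These 3 calls rest on few reads. SNORD78 had 5, 16 and 20 reads in Sham-24h against 0, 1 and 3 in Con-24h. SNORD72 had 3, 11 and 10 against 0, 1 and 2, and SNORA28 had 8, 14 and 12 against 1, 3 and 2. DESeq2 gave none of the 3 an adjusted p. All 5 small RNA genes named here lost their calls without Sham-24h replicate 3, and SCARNA7 also without Con-24h replicate 2. The 3 low ones also lost theirs without Sham-24h replicate 2 and Con-24h replicates 1 and 2.

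Reads on a small RNA gene and on its host overlap in position, so the host is given beside it. A single host gene could be matched for 10 of the 85 small RNA genes, by symbol and position in the RefSeq annotation of GRCr8, and the small RNA had the higher log2 fold change in 7 of the 10. Kpna4, a nuclear import receptor that hosts SCARNA7, had a log2 fold change of 0.54 (edgeR adjusted p 0.0311). Eif5, the translation initiation factor that hosts SNORA28, had one of 0.83 (adjusted p 0.0119). Ddx5, an RNA helicase that hosts Mir3064, had one of 0.48 (adjusted p 0.041). Host and small RNA were thus both higher in Sham-24h for these 3 pairs. In 2 other pairs the host was higher and the small RNA was not: Ipo7, a nuclear import receptor, had 0.85 (adjusted p 0.0166) with SNORA23 at -2.04 (adjusted p 0.56), and Snx5, a sorting nexin, had 0.56 (adjusted p 0.0146) with SNORD17 at -1.90 (adjusted p 0.575). Mir3064 (ENSRNOG00000050490), the precursor gene of a microRNA, had a log2 fold change of 2.26 (adjusted p 0.0384), with 5.91, 25.8 and 32.5 FPKM in Sham-24h and 1.61, 4.2 and 7.58 FPKM in Con-24h. Sham-24h replicate 1 lay below Con-24h replicate 3, so the groups overlapped, and it was called in 2 of the 6 fits that left a library out. It was chosen after its values were seen. Its sequences are shown because it is the called small RNA for which the RefSeq tables used here hold them (8 of 32 miRNA genes tested matched by symbol). The first is the precursor at chr10:92225518-92225584 of GRCr8, minus strand, with the mature 3p arm in capitals, and the second is that arm with its seed, bases 2 to 8, in capitals. Poly(A) libraries do not measure the mature form.
Mir3064 precursor: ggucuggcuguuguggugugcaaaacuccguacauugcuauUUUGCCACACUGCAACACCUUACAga
rno-miR-3064-3p: uUUGCCACacugcaacaccuuaca

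Genes annotated as lincRNA, long intergenic non-coding RNA, numbered 370 among the genes tested, of which 6 were called higher (1.62%, beside 0.916% of all genes) and none lower. At the adjusted p alone 3.51% of them were higher, beside 5.64% of all genes. The 3 with the highest mean level were Rn60_X_0663.2, with 8.74, 12.4 and 27.1 FPKM in Sham-24h against 1.44, 2.36 and 4.34 FPKM in Con-24h, AABR07012047.1 (log2 fold change 1.10, adjusted p 0.0232) and AABR07035008.1 (2.08, adjusted p 0.0215). The groups overlapped in none of the 3. Each lost its call without Sham-24h replicate 3 and without Con-24h replicate 1 or 2. AABR07012047.1 and AABR07035008.1 also lost theirs without Sham-24h replicate 2. Rn60_X_0663.2 had a log2 fold change of 2.58 (adjusted p 0.0214).

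Genes of neutrophils had large fold changes that rested on few rats. Of 12 neutrophil markers, all had a log2 fold change above 0 with a median of 2.44, and 4 were called higher, beside 0.916% of all genes tested (Mmp8, S100a8, Mmp9 and Camp). Mmp8 (ENSRNOG00000009907), the neutrophil collagenase, lay at 13.8, 2.34 and 87.3 FPKM in Sham-24h and at 4.93, 0.97 and 2.08 FPKM in Con-24h. S100a8 (ENSRNOG00000011557), a calcium-binding protein that fills the neutrophil cytoplasm, lay at 578, 81.2 and 4662 FPKM against 366, 43.2 and 87.9 FPKM. Sham-24h replicate 3 was far above every other rat at 24 h in both genes, and the groups overlapped. The summed level of the 12 markers was 2089, 431 and 9756 FPKM in Sham-24h and 1339, 295 and 454 FPKM in Con-24h. Without Sham-24h replicate 3 the median was 0.75, with 9 of 12 above 0 and 1 called. Of the 12, 1 was called without Con-24h replicate 1 or 3, and none without Con-24h replicate 2. At 6 h the sums were 3053, 6157 and 874 FPKM in Sham-6h and 1483, 3550 and 1356 FPKM in Con-6h, so every Con-24h rat was below every Con-6h rat, and the Sham-24h and Sham-6h sums overlapped.

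Camp (ENSRNOG00000020733, chromosome 8), the precursor of the antimicrobial peptide cathelicidin, was the only called neutrophil marker whose groups did not overlap. It lay at 54.4, 4.65 and 16.1 FPKM in Sham-24h and at 4.31, 3.62 and 4.1 FPKM in Con-24h. Its log2 fold change was 2.61 (edgeR adjusted p 0.016), and 1.37 without Sham-24h replicate 1. Camp lost its call without Sham-24h replicate 1 or Con-24h replicate 1 or 2. Ngp, a further granule protein, was at 113 FPKM in Sham-24h replicate 1 and at 3.71 to 6.01 FPKM in the other 5 rats. The rat with the highest level thus differed between these genes. A pair of receptors of myeloid cells were also called: Clec4d, a C-type lectin, at 7.79, 2.4 and 9.89 FPKM against 1.75, 0.77 and 1.34 FPKM, and Cd200r1, which inhibits myeloid cells, at 1.6, 1.39 and 1.84 FPKM against 0.49, 0.42 and 0.59 FPKM. In both the groups did not overlap, and both lost their calls without Sham-24h replicate 3 or Con-24h replicate 1 or 2, Clec4d also without Sham-24h replicate 1 or Con-24h replicate 3. Of 13 macrophage and monocyte markers none passed, with a median of 0.13 and sums of 245 to 257 FPKM in Sham-24h and 226 to 251 FPKM in Con-24h. That median was -0.02 without Con-24h replicate 2, and 2 of the 13 were called higher without Sham-24h replicate 2. Prg2, the major basic protein of eosinophils, was called with a log2 fold change of 4.68, but it lay at 38.1 FPKM in Sham-24h replicate 1 and at 0.04 to 1.29 FPKM in the other 5 rats, and it was called only without Sham-24h replicate 2 among the fits that left a library out.

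A secreted protein and a matrix protein were also among the up-regulated DEGs that the naming rule chose for their large changes. Clca1 (ENSRNOG00000060831, chromosome 2), a secreted protein of mucous airway cells, lay at 7.22, 3.94 and 9.78 FPKM in Sham-24h and at 0.43, 0.67 and 1.68 FPKM in Con-24h. Its log2 fold change was 2.91 ± 0.93 (SE, edgeR adjusted p 0.047), and it lost its call without any 1 of 5 of the 6 libraries, all but Con-24h replicate 3. At 6 h it ran the other way, with 0.36, 1.96 and 1.13 FPKM in Sham-6h and 5.89, 7.58 and 4.38 FPKM in Con-6h. Aspn (ENSRNOG00000050431, chromosome 17), asporin, a small proteoglycan of collagen matrix, lay at 0.89, 1.45 and 0.92 FPKM against 0.1, 0.15 and 0.18 FPKM, with a log2 fold change of 2.90 (adjusted p 0.00966), and was not called without Con-24h replicate 1 or 2. Of 16 fibroblast and matrix genes none passed, with a median of 0.13 that was -0.06 without Con-24h replicate 3 and 0.33 without Con-24h replicate 2.

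**Figure D2:**
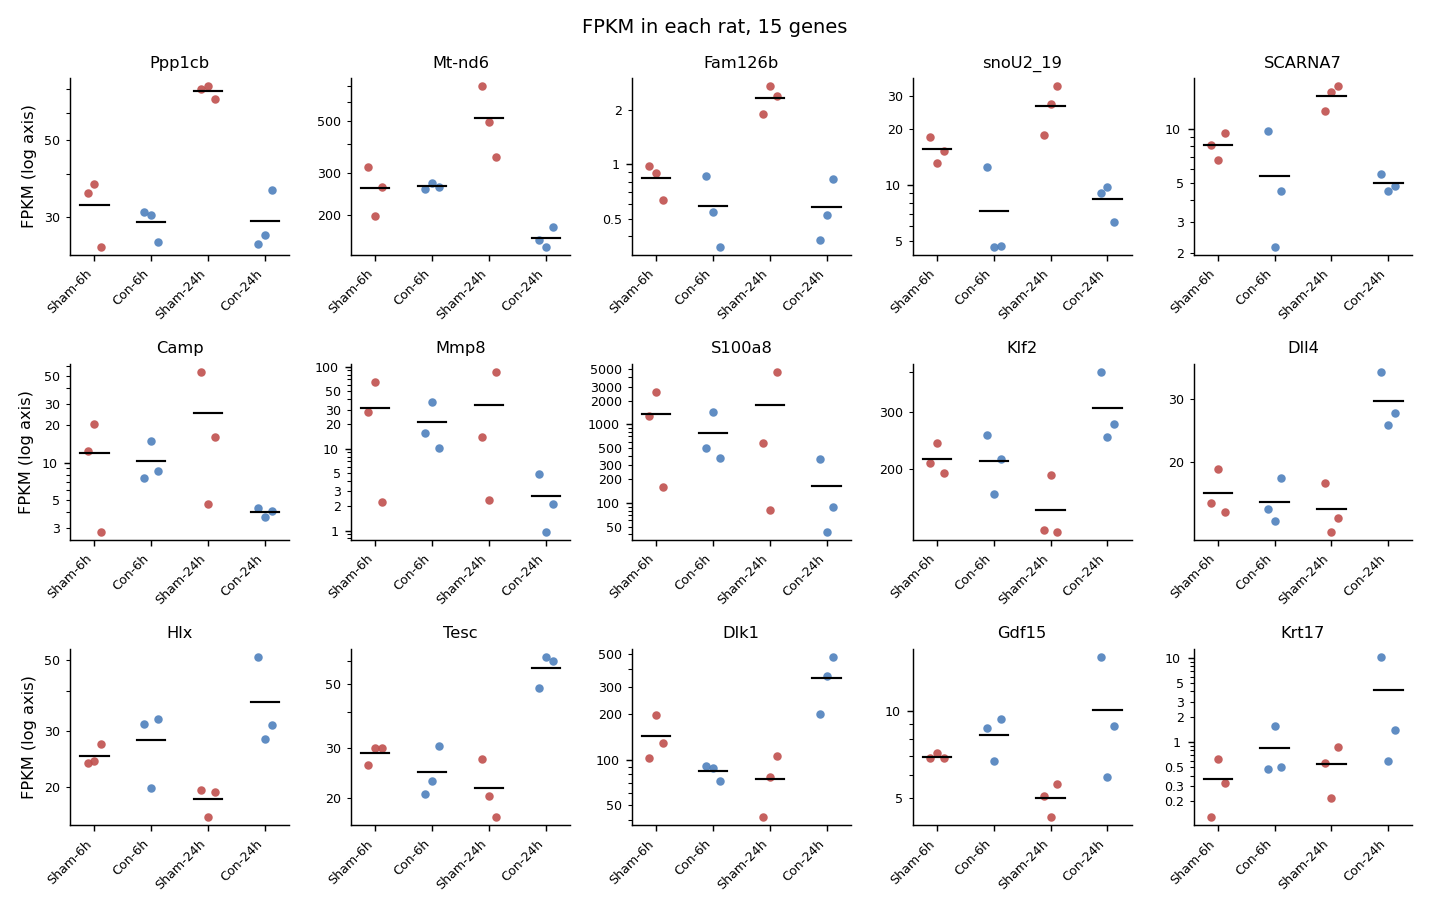
FPKM on a log axis for 15 genes in each of 12 rats, 3 in each group (Sham in red, Con in blue), with black lines at group means. Ppp1cb and Fam126b are high in the 3 Sham-24h rats alone, Tesc and Dll4 in the 3 Con-24h rats alone, and Mmp8 and S100a8 scatter widely within groups.

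The genes lower in Sham-24h, which are those higher after saline infusion, were fewer. Klf2 (ENSRNOG00000014205, chromosome 16), the transcription factor that endothelium induces under laminar flow, lay at 129, 191 and 127 FPKM in the Sham-24h rats and at 402, 252 and 276 FPKM in the Con-24h rats. All 3 Con-24h rats were above all 3 Sham-24h rats, with a log2 fold change of -1.05 ± 0.22 (SE, edgeR adjusted p 0.00883). At 6 h its means were 214 ± 24.6 (SD, n = 3) FPKM in Sham-6h and 212 ± 44.4 FPKM in Con-6h, between the means of both groups at 24 h. Dll4 (ENSRNOG00000014011, chromosome 3), the Notch ligand of arterial and sprouting endothelium, lay at 17.6, 12.8 and 14.02 FPKM in Sham-24h and at 35.9, 25.5 and 27.5 FPKM in Con-24h, with a log2 fold change of -1.01 ± 0.23 (adjusted p 0.0105). Its 6 h means, 16.4 ± 2.43 FPKM in Sham-6h and 15.5 ± 2.28 FPKM in Con-6h, were close to Sham-24h. Without Con-24h replicate 1 neither Klf2 nor Dll4 was called, nor Klf2 without Sham-24h replicate 1 or 3, nor Dll4 without Sham-24h replicate 2.

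Dlk1 (ENSRNOG00000019584, chromosome 6), an imprinted membrane protein of the Notch ligand family that is best known from fetal tissue and preadipocytes, had the largest fall among called genes whose groups did not overlap. It lay at 41.9, 77.1 and 105 FPKM in Sham-24h and at 200.3, 357 and 479 FPKM in Con-24h. The log2 fold change was -2.20 ± 0.53 (SE, edgeR adjusted p 0.0144), and the call was lost without Sham-24h replicate 1 or Con-24h replicate 2. At 6 h the order was reversed, with 103, 198 and 129 FPKM in Sham-6h and 91.2, 88.5 and 72.0 FPKM in Con-6h, a log2 fold change of 0.79 (unadjusted p 0.136). Tesc (ENSRNOG00000001128, chromosome 12), the calcium-binding protein tescalcin, lay at 27.3, 20.4 and 17.3 FPKM in Sham-24h and at 48.3, 62.0 and 59.9 FPKM in Con-24h. Its log2 fold change was -1.40 ± 0.30 (adjusted p 0.00918), and its 6 h means of 28.7 ± 2.2 (SD, n = 3) and 24.7 ± 5 FPKM in Sham-6h and Con-6h were below every Con-24h value. Tesc was not called without Sham-24h replicate 3 or Con-24h replicate 2.

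Of the other lower DEGs, Hlx, a homeobox transcription factor, lay at 19.5, 16.2 and 19.4 FPKM against 51.1, 28.2 and 31.2 FPKM, with a log2 fold change of -1.01 (edgeR adjusted p 0.0116). Gdf15, a stress-induced cytokine, lay at 5.11, 4.32 and 5.62 FPKM against 15.3, 5.94 and 8.83 FPKM (adjusted p 0.0267). Con-24h replicate 1 held the highest level of both, and neither was called without it, nor Hlx without Sham-24h replicate 2, nor Gdf15 without any 1 of the 3 Sham-24h rats. Crym, a thyroid hormone-binding protein of the cytoplasm, Kcnk5, a background potassium channel, Rell2, a protein that binds the receptor RELT, and Zp2, a protein of the egg coat, had log2 fold changes of -1.47, -1.09, -1.48 and -1.64, with means of 8.17, 1.78, 1.07 and 2.06 FPKM in Con-24h, and no overlap between groups. None of these 4 was called without Con-24h replicate 1 or 2. Krt17, an epithelial keratin, was called at -2.91 (adjusted p 0.0396) although its groups overlapped: 1 rat, Con-24h replicate 1, lay at 10.3 FPKM and the other 5 at 0.22 to 1.4 FPKM, and without that rat the log2 fold change was -0.85. It was the only one called of 24 keratins, whose median was -0.18 (-0.34 without Sham-24h replicate 2 and -0.06 without Con-24h replicate 2).

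Markers of the lung's resident cells were read next. None of the 10 alveolar type 2 markers passed, but 9 had a log2 fold change below 0, with a median of -0.41 (-0.48 to -0.41 with each library left out in turn), beside 0.02 over all genes. For 7 of the 10 every Con-24h rat was above every Sham-24h rat, which held for 13.7% of all genes tested. Sftpb, a surfactant protein, lay at 5049, 4564 and 3313 FPKM in Sham-24h and at 6036, 6407 and 8060 FPKM in Con-24h, with a log2 fold change of -0.67 (edgeR adjusted p 0.0708). Napsa, the protease that processes surfactant proteins, lay at 363, 321 and 351 FPKM against 507, 489 and 481 FPKM, with a log2 fold change of -0.52 (adjusted p 0.0563). Lamp3, of the lamellar body membrane, was the exception at 0.39. The summed level of the 10 markers was 25316 to 35589 FPKM in Sham-24h and 38665 to 43708 FPKM in Con-24h, and at 6 h 26662 to 41486 FPKM in Sham-6h and 29238 to 40484 FPKM in Con-6h.

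Endothelial markers leaned in the direction of Klf2 and Dll4 without passing. Of 14 tested, 11 had a log2 fold change below 0, with a median of -0.31 (-0.47 to -0.25 with each library left out). The sums did not overlap, at 2079 to 2785 FPKM in Sham-24h and 3004 to 3966 FPKM in Con-24h. Among all 37 lists, sums lay apart with Con-24h above for 5, this one included, and with Sham-24h above for 1. Such sums weigh abundant markers most. Of the 14 markers 10 overlapped between groups, 3 had Con-24h above (beside 13.7% of all genes) and 1 had Sham-24h above. Plvap, which forms the diaphragms of fenestrae and caveolae, lay at 691, 624 and 427 FPKM in Sham-24h and at 1018, 1020 and 784 FPKM in Con-24h, with a log2 fold change of -0.70 (edgeR adjusted p 0.0504). Vwf, the clotting factor stored by endothelium, had one of -0.58 (adjusted p 0.0718), and in the other direction Emcn, endomucin, had one of 0.60 (adjusted p 0.0999) with Sham-24h above. Without Con-24h replicate 3, 2 of the 14 were lower at the adjusted p alone, and 1 was without Sham-24h replicate 1 or 2. The part of the endothelial level in the Klf2 and Dll4 results was not tested.

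Other cell type lists moved less or scattered more. The 5 mesothelial markers were all below 0, with a median of -0.67 (-1.05 without Sham-24h replicate 2), but all 5 overlapped between groups. All 10 heart muscle markers were above 0, with a median of 1.22 (0.51 without Sham-24h replicate 1 and 2.29 without Con-24h replicate 1), and their sums ranged from 11.8 to 207 FPKM within Sham-24h and from 22.7 to 123 FPKM within Con-24h. Sums of ciliated cell markers were 670 to 798 FPKM in Sham-24h and 860 to 946 FPKM in Con-24h, although the list's median log2 fold change was 0.08 (-0.09 without Con-24h replicate 2 and 0.28 without Con-24h replicate 1). Club and secretory markers summed to 20031 to 36459 FPKM against 36498 to 44030 FPKM, with a median of -0.23 (-0.64 without Sham-24h replicate 1 and 0.09 without Con-24h replicate 1). Pancreatic acinar markers, 6 tested, were low in every rat, with sums of 13.1 to 16.3 FPKM in Sham-24h and 12.5 to 17.2 FPKM in Con-24h, most of them from Cela1. Red blood cell markers summed to 662 to 4875 FPKM against 1888 to 2801 FPKM.

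Among response lists, the interferon genes were set by single rats. Of 20, none passed and 18 were below 0, with a median of -1.58, the lowest of the 37 lists. The summed level was 445, 1246 and 452 FPKM in Sham-24h and 3131, 618 and 440 FPKM in Con-24h. Isg15, a ubiquitin-like protein induced by interferon, lay at 237 FPKM in Con-24h replicate 1, at 22.8 FPKM in Sham-24h replicate 2 and at 2.62 to 6.19 FPKM in the other 4 rats. Without Con-24h replicate 1 all 20 genes were above 0, with a median of 1.10 and none passing, so the direction of this list turned with 1 rat. Immediate early genes, which cells switch on within minutes of a stimulus, were below 0 in 16 of 19 cases, with a median of -0.46 (-0.16 without Con-24h replicate 1) and none passing. Their sums were 525 to 603 FPKM in Sham-24h and 620 to 1033 FPKM in Con-24h, the highest being replicate 1. Jund, an AP-1 subunit, lay at 175, 151 and 155 FPKM against 286, 182 and 190 FPKM, with a log2 fold change of -0.46 (edgeR adjusted p 0.139).

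In all, 6 of 642 list genes were DEGs (0.935%, beside 1% of all genes). At the adjusted p alone 11 were higher (1.71%, beside 5.64%) and 22 lower (3.43%, beside 4.21%). Genes passing the adjusted p stood in 11 of the 37 lists. Besides Krt17, the keratin above, a single gene passed in each of 6 of these lists: Clock, a core circadian transcription factor (log2 fold change 0.73), Tfpi, an inhibitor of coagulation (0.65), Aldoa, a glycolytic enzyme (-0.36), Mcm2, a subunit of the replicative helicase (-0.53), Nqo1, a target of NRF2 (-0.60) and Hist1h1c, a linker histone (-0.56). Few of these passes held with a library left out: a gene of the list passed in 3 of the 6 such fits for the circadian list, in 2 for the lists of Aldoa, Mcm2 and Nqo1, and in 1 for those of Tfpi and Hist1h1c. Of 95 genes with ribosomal protein symbols, 2 were higher and 6 lower, but Rps6ka3 (higher) and Rps6ka4 (lower) are kinases that the symbol pattern also took. Without the kinases 1 of 85 was higher (a second, low Rpl32 gene at 15.1 ± 2.82 FPKM against 8.36 ± 0.975 FPKM, while the abundant Rpl32 gene at 1331 FPKM had a log2 fold change of -0.03) and 5 were lower (Rps2, Rps10, Rps18, Rpl15 and Rpl18), a share of 5.88% beside 4.21% of all genes, with log2 fold changes of -0.48 to -0.44. Of the 95, none was lower without Sham-24h replicate 2 or 3 or Con-24h replicate 1 or 2, 2 were without Sham-24h replicate 1 and 13 without Con-24h replicate 3. The ribosomal family has many near-identical copies, and reads that mapped to several positions had been discarded. Of 31 lists besides the interferon, mesothelial, immediate early, alveolar type 2, neutrophil and heart muscle lists, medians ran from -0.37 (T cells) to 0.31 (alveolar type 1 cells). Without Con-24h replicate 1 these 2 medians were 0.17 and 0.10, and the T cell median was -0.79 without Con-24h replicate 3. The alveolar type 1 median was 0.13 and 0.16 without Sham-24h replicates 2 and 3. Some other medians among the 31 lists moved further with a library left out. The red blood cell median of -0.06 fell to as low as -1.44. The natural killer cell median of -0.20 became 0.75 without Con-24h replicate 1. Glucocorticoid targets, inflammatory cytokines, acute phase proteins, heat shock chaperones and genes of the unfolded protein response, the lists closest to a surgical stress, had medians of -0.06, -0.11, -0.11, 0.06 and -0.12, and none of their genes passed. Single libraries moved these medians, and each changed sign in at least 1 of the 6 fits with a library left out. They were -0.51 for glucocorticoid targets without Sham-24h replicate 2 (0.06 without replicate 3), 0.57 for cytokines without Con-24h replicate 1, 0.28 for acute phase proteins without Con-24h replicate 3, -0.27 for chaperones without Sham-24h replicate 3, and, for the unfolded protein response, 0.07 without Con-24h replicate 1 and -0.27 without Sham-24h replicate 3. Without Con-24h replicate 3, 1 gene of the unfolded protein response was higher and 1 lower at the adjusted p.

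**Figure D3:**
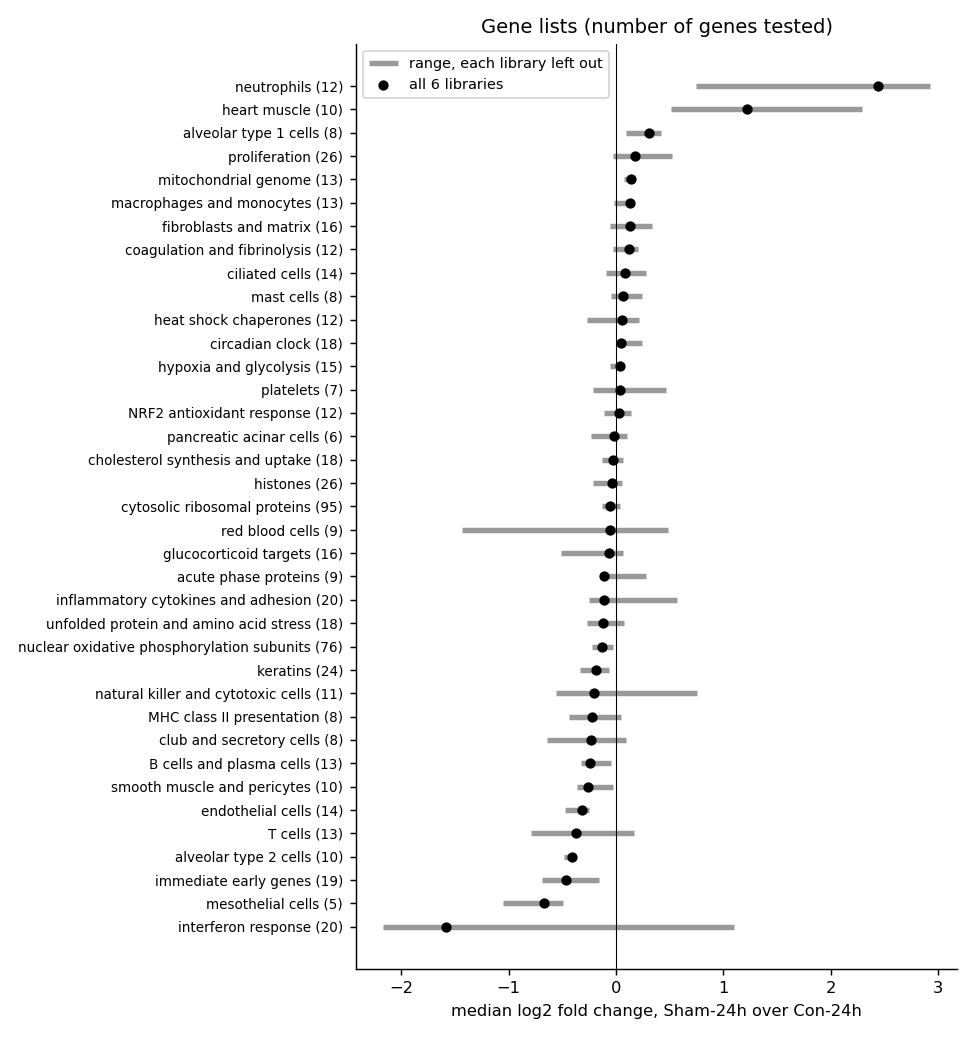
Median log2 fold change of Sham-24h over Con-24h for 37 gene lists (black points, number of genes tested in parentheses) with the range when each of the 6 libraries is left out in turn (grey bars). The interferon list runs from -2.17 to 1.10 across these fits, and the alveolar type 2 list from -0.48 to -0.41.

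Gene length was recovered from the ratio of reads to FPKM on a relative scale for 89.9% of genes tested and 91.8% of up-regulated DEGs. The up-regulated DEGs had a median of 3583 bases, beside 2672 over all genes and 2028 for the down-regulated DEGs. In 5 equal classes of length, from shortest to longest, 24, 10, 23, 38 and 39 genes were called higher, and the median log2 fold change at 24 h was -0.02, -0.06, -0.03, 0.02 and 0.10. At 6 h these medians fell from the shortest to the longest class, at 0.06, 0.03, 0.00, -0.01 and -0.04. The part of RNA quality in the 24 h result was not tested.

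**Figure D4:**
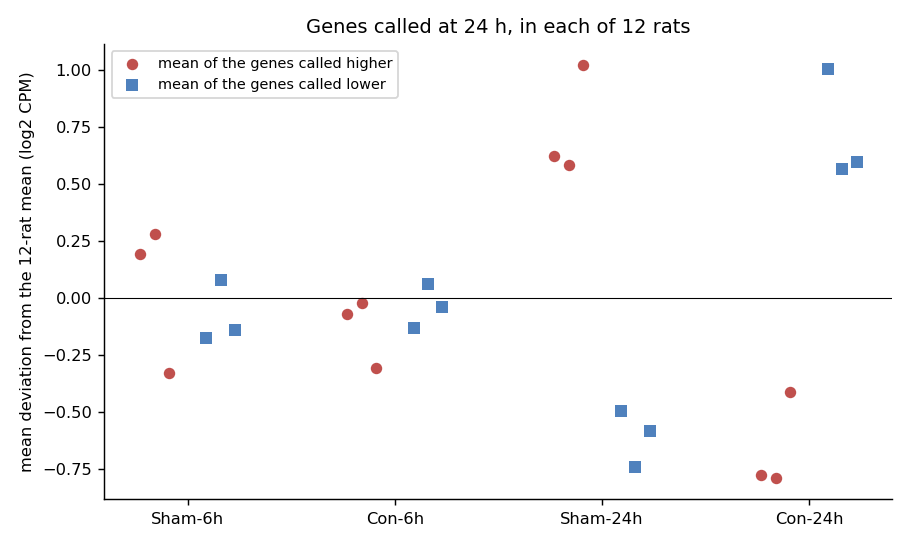
Mean deviation from the mean of 12 rats, in log2 CPM, of the 146 genes called higher (red circles) and the 14 called lower (blue squares) at 24 h, in each rat. The 24 h groups were used to choose these genes; in the 6 h rats the means of the higher genes lie between -0.33 and 0.28.

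The rats within each group differed in how far they carried the pattern. Relative to the mean of the 12 Sham and Con rats, the 146 up-regulated DEGs averaged 0.62, 0.59 and 1.02 on the log2 scale in Sham-24h replicates 1 to 3 and -0.78, -0.79 and -0.41 in Con-24h replicates 1 to 3. These genes were chosen on these rats, so the separation itself is no finding. In Sham-6h they averaged 0.19, 0.28 and -0.33 and in Con-6h -0.07, -0.02 and -0.31, so those groups overlapped. The number of DEGs followed the library left out. It was 201 without Sham-24h replicate 1, 131 without replicate 2 and 55 without replicate 3, and 47, 26 and 366 without Con-24h replicates 1, 2 and 3. Of the 160 DEGs, 137 were also called without Con-24h replicate 3 and 24 without Con-24h replicate 2. Up-regulated DEGs outnumbered down-regulated ones in each of these 6 fits, with 22 to 340 against 4 to 26. At the adjusted p alone, however, the numbers were nearer, with 67 higher and 40 lower without Con-24h replicate 2 and 153 and 149 without Con-24h replicate 1. In each of the 6 fits, 78.6% to 92.0% of the genes higher at the adjusted p alone had the same sign at 6 h, and 82.5% to 94.3% of the lower genes did.

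**Figure D5:**
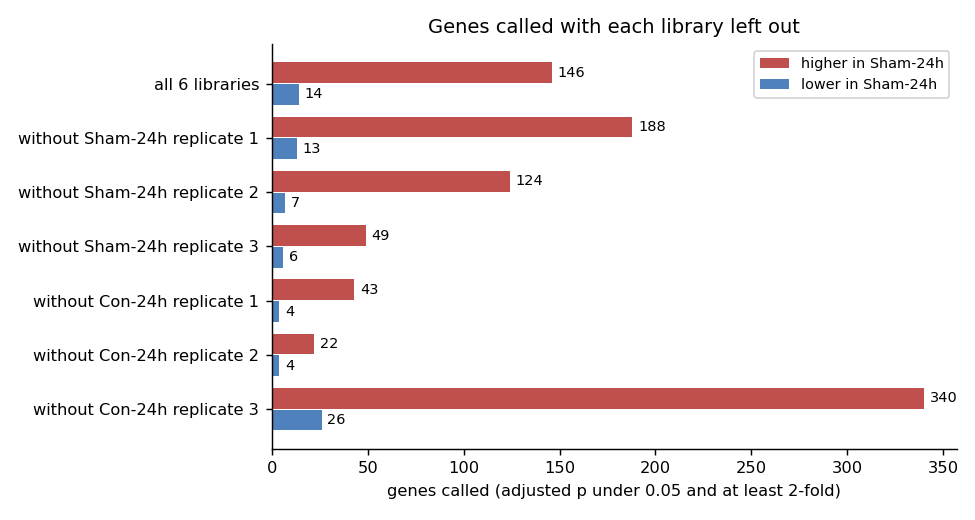
Number of genes called higher (red) and lower (blue) in Sham-24h with all 6 libraries and with each left out in turn. The total runs from 26 without Con-24h replicate 2 to 366 without Con-24h replicate 3.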

How the data were processed

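The 30 rat lung RNA-seq libraries were assigned to 10 groups of 3 by their GEO titles. Per the study's methods, the authors made directional poly(A) libraries, aligned them by TopHat2 against rat_ensembl_v6 of Ensembl and discarded multi-mapped reads; the counting program is not given in the sources used here. The deposited counts are whole-number reads per gene without normalization (22914 genes), and the deposited FPKM values, computed by the authors, cover 22907 of them. Reads themselves were not processed again.

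Low genes were removed by edgeR's filterByExpr, with its minimum count at 10 and its minimum total at 15. After TMM scaling, 1 quasi-likelihood model with a mean for each of the 10 groups was fitted to all 30 libraries, leaving 20 residual degrees of freedom (edgeR 4.0.16 and limma 3.58.1, R 4.3.3), with Benjamini-Hochberg adjustment over 15934 genes. DEGs had an adjusted p under 0.05 and a change of at least 2-fold. Levels are FPKM, given as single rats or mean ± SD. FPKM is relative to each library, so levels are shares of its RNA. Averaged with most weight on abundant genes, the spread between rats of 1 group was far above the counting variance. The part of read depth was not tested separately for genes with few reads.

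The rule for named genes took up to 12 genes in each direction with the largest change, 1 FPKM or more in the higher group mean, no clone or locus symbol and no overlap between groups (12 higher and 10 lower met it), every called list gene and the 3 most abundant called lncRNAs. A mitochondrial tRNA gene listed as AY172581.19 was left out as a clone name. The comparisons, the 37 gene lists and the rule were chosen with earlier results of these data known; 10 list genes could not be matched. Lists were described by counts and medians, with no test. In counts simulated for this comparison (15826 genes passing the filter), the adjusted p passed for 46 of 100 genes changed 2-fold, 87 of 100 changed 4-fold and 9 unchanged genes. With the 2-fold limit added, as for DEGs, these numbers were 33, 87 and 6. The changed genes were drawn above a floor of expected reads, so recovery of lower genes was not tested. The alternatives tried were smaller models, edgeR's exact test, DESeq2 1.42.0, RLE scaling, other filters, no fold limit, an unadjusted p, a replicate block and each library left out in turn. Sequences were taken from RefSeq (GRCr8). Figures were drawn with Python 3.11.15 and matplotlib 3.10.9.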

Additional observations from a re-analysis of the deposited data

Results flagged for a closer look

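For 2 of the named genes the Sham and Con rats did not overlap at either time, and their order was opposite at 6 and 24 h. Clca1 was higher in Sham at 24 h (log2 fold change 2.91) and lower at 6 h (-2.35), a difference of 5.26 on the log2 scale (edgeR interaction p 0.000454, adjusted p 0.337). Dlk1 was lower in Sham at 24 h (-2.20) and higher at 6 h (0.79), a difference of -2.99 (interaction p 0.000465, adjusted p 0.337). Neither interaction passed the adjustment over all genes.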

How the results depend on the processing

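The 160 DEGs at 24 h (146 higher, 14 lower in Sham-24h) became 465 (409 and 56) at an unadjusted p under 0.05, 1569 (898 and 671) with no fold limit, 54 (50 and 4) in a model of the 12 Sham and Con libraries and 0 (0 and 0) in a model of the 6 libraries alone; the models with fewer libraries also have fewer residual degrees of freedom. With each library left out they ran from 26 to 366 (22 to 340 and 4 to 26). RLE scaling (152), no filter (123), a filter at 1 FPKM (120), DESeq2 (181) and edgeR's exact test (116) stayed within 1.5 times; RLE scaling moved the median of all genes by -0.02. At 6 h and for the difference between times, where edgeR called 0, an unadjusted p gave 286 and 515 and DESeq2 7 and 11, and leaving out single libraries gave 0 to 1. For 29 named genes, no value of 396 under the alternatives changed direction. Most of these genes were chosen because their groups did not overlap, so a reversal was hardly possible and its absence is no support. Of the 396 values, 245 kept their side of the threshold and 151 no longer passed it.

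Deviations of Sham-24h and Con-24h rats with the same replicate number correlated at 0.16, 0.04 and 0.17. Those of rats with different numbers correlated at -0.31 to 0.20, so the highest value was not between rats of the same number. Whether the numbers pair the rats was not tested further. With a replicate block 152 genes were called (142 higher and 10 lower), 144 of them among the 160, and 0 at 6 h and for the difference between times. Over all genes, the spread between 3 rats limits these results more than read depth does. For called genes with few reads, such as SNORD78 and SNORD72, the part of read depth was not tested.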

Other observations

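The groups that stood apart differed from gene to gene. Tesc and Dll4 were high in the 3 Con-24h rats alone among the 12 Sham and Con rats, whereas Ppp1cb, Cav2 and Fam126b were high in the 3 Sham-24h rats alone. Over the 146 genes higher in Sham-24h, the median log2 fold change was 0.77 for Sham-24h against Sham-6h and -0.39 for Con-24h against Con-6h. Over the 14 lower genes these medians were -0.50 and 0.66. Both sets were chosen on the 24 h rats that enter these medians, so the values describe the sets and are no test.

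Transferrin receptor (Tfrc), which imports iron, and Ogt, which attaches O-linked N-acetylglucosamine to proteins, were among the genes called higher in Sham-24h and were picked after their values were seen. Tfrc averaged 4.88 ± 0.518 FPKM in Sham-24h and 2.05 ± 0.954 FPKM in Con-24h (SD, n = 3), with 2.00 ± 0.309 and 1.68 ± 0.547 FPKM in Sham-6h and Con-6h. Ogt averaged 9.93 ± 4.72 FPKM in Sham-24h and 4.16 ± 1.9 FPKM in Con-24h, with overlap between rats. Neither was called without Sham-24h replicate 3 or Con-24h replicate 1 or 2.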
